A study of Mus musculus with 7 samples.

Results

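The alpha and beta globin loci of the mouse were described by where CTCF was crosslinked to them. CTCF, a DNA-binding protein with zinc fingers, is found at insulators and at domain borders of chromatin. The members were all peaks and peak pairs with their centre in a window of 150 kb on chromosome 7, around the beta globin genes from Hbb-bt to Hbb-y (chr7:103812524-103853207), or of 180 kb on chromosome 11, around the alpha globin genes from Hba-x to Hba-a2 (chr11:32276600-32297310). They were chosen by position alone, and coordinates are those of mm10. CTCF was mapped by ChIP-exo 5.0, in which an exonuclease digests each strand of the immunoprecipitated DNA up to the crosslinked protein, so that a bound site gives a forward-strand stop on its left and a reverse-strand stop on its right. Peaks are 21 bp wide, carry a strand and a count of tags (the positions where the exonuclease stopped), and are listed from 2 tags upwards. A pair joins a forward peak to a reverse peak whose midpoint is 10 to 80 bp further along. Over the 7 libraries the loci held 85 of 197259 pairs, and 72 of the 85 were in the library with most tags, beside 159387 of the 197259.

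There was 1 library each of brain, lung, kidney and liver taken as organs, and 1 library each of 2700000, 270000 and 27000 liver cells. The study's methods estimate liver cell numbers from the wet weight of tissue, so these numbers are not counts of isolated cells. All mice were labelled wildtype, no treatment or transgene is given, the study's methods describe the tissue donors as adult males without naming a strain, and all libraries used the same CTCF antibody. The labels give a lower formaldehyde concentration than the study's methods, and their extraction protocol names IgG. Since each condition had 1 library, differences could not be checked in replicates and no test was run. The labelled tissues could not be checked against expression markers, since the data measure binding. Listed tags ranged from 35594 in the library of 27000 cells to 6592538 in that of 2700000 cells, which is called the deepest library here, with 527038 to 1635582 in the organs. Levels are given as RPM, tags per 1000000 listed tags of a library. The lowest listed count, 2 tags, was worth 0.303 RPM in the deepest library, 1.22 to 3.79 in the organs, 3.12 in the library of 270000 cells and 56.2 in that of 27000 cells. A count of 0 therefore means that no single peak reached these values, and not that CTCF was absent. Peaks whose tags all start at 1 position made up 76.3% to 91.5% of the peaks in the organs and 33.1% in the deepest library.

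Both loci make the chains of haemoglobin in red blood cell precursors and switch genes during development. In the beta locus on chromosome 7, Hbb-y and Hbb-bh1 are the embryonic genes and Hbb-bs and Hbb-bt the adult genes, all read from the minus strand and surrounded by olfactory receptor genes. In the alpha locus on chromosome 11, Hba-x is the embryonic gene, Hba-a1 and Hba-a2 are the adult genes, each is followed by a theta globin gene (Hbq1b and Hbq1a), and enhancers of the locus lie within introns of the neighbouring housekeeping gene Nprl3. CTCF sites are known on both sides of each locus. In the adult mouse, red cells are made mainly in bone marrow and spleen, neither of which was studied here.

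RefSeq promoter sequences (GRCm38.p6, with the same coordinates as mm10) were at hand for 19 of the 26 genes of both windows and for 6 of the 7 globin genes above, Hbb-bh1 being the one without. The 120 bases before the start of 5 genes are printed 5′ to 3′ along the gene, because they show the 2 promoters in these loci with a pair of the deepest library beside promoters without one. Capitals mark the 4 spellings searched for as the core of the CTCF motif, AGGGGGC, then AGGTGGC, with AGAGGGC for the third and the remaining AGATGGC, on either strand. The spellings differ from each other, so that 1 place cannot match more than 1 of them. The first 2 lines are the theta globin genes, followed by the embryonic alpha gene, an adult alpha gene and an adult beta gene.

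Hbq1b, chr11:32286844-32286963, plus strand: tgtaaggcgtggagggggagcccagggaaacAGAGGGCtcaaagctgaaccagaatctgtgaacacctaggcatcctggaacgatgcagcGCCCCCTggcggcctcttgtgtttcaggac
Hbq1a, chr11:32299949-32300068, plus strand: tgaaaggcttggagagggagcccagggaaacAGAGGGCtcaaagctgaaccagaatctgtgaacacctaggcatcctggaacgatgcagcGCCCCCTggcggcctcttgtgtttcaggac
Hba-x, chr11:32276480-32276599, plus strand: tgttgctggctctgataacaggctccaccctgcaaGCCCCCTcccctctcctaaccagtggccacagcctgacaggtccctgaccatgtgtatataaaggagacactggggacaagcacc
Hba-a1, chr11:32283552-32283671, plus strand: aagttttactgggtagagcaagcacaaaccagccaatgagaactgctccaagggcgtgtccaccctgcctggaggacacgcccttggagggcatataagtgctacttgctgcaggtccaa
Hbb-bs, chr7:103827929-103828048, minus strand: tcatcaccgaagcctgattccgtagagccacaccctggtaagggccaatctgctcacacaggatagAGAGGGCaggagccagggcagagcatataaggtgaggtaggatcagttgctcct

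The stretches of Hbq1b and Hbq1a differed at 3 of 120 bases and shared a GCCCCCT (which reads AGGGGGC on the other strand) at 30 to 24 bases before the start. The 120 bases of Hba-a1 occurred whole in the Hba-a2 promoter. Of 261 words of 40 bases in the Hba-a1 promoter of 300 bases, 258 were also in that of Hba-a2, against 66 of 261 for Hbq1b with Hbq1a and 0 of 261 for Hbb-bs with Hbb-bt. The authors discarded reads that align to more than 1 place, so the tags at Hba-a1 and Hba-a2 and at the theta genes are uncertain where the copies are the same. Only promoters were compared, so copies within gene bodies, also those of Hbb-bs and Hbb-bt, could not be seen. The part of mappability in the results was not tested.

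In the deepest library, from 2700000 liver cells, CTCF pairs lay around the globin genes of the beta locus and not between them. The beta window held 92 peaks, 511 tags and 13 pairs, and the alpha window 319 peaks, 2206 tags and 59 pairs. Tag density in the alpha window was 5.28 times that of the rest of the genome (95% exact Poisson interval 5.06 to 5.51), and in the beta window 1.47 times (1.34 to 1.60). These and all later intervals cover counting error only. Tags are listed in peaks of at least 2, but intervals on tags treat each tag as independent, so they are too narrow. Of 15115 bins of 180 kb, 0.576% held at least as many pairs as the alpha window, and the median bin held 6 pairs. Of 18141 bins of 150 kb, 25.2% held at least as many as the beta window, and the median bin held 5 pairs. Pairs within 200 bp of each other have overlapping windows and were joined to clusters, which gave 6 clusters at the beta locus and 18 at the alpha locus. Clusters are named by the distance of their strongest pair from the start of Hbb-y or Hba-x along transcription, with negative values upstream.

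All 7 genes and pseudogenes of the beta globin family region, from Hbb-bt to Hbb-y, lay in 1 stretch of 65.9 kb with no pair in the deepest library. This stretch held 22 peaks with 47 tags there. It is longer than the median gap between clusters genome-wide, 18.1 kb, and 17.6% of 62325 gaps were at least as long. The gene bodies of Hbb-bt and Hbb-bs had no listed tag in any library, Hbb-bh1 had 2 tags in the deepest library, and Hbb-y had 3 tags in kidney. From the nearest pair, Hbb-bt was 5319 bp away, Hbb-bs 19318 bp, Hbb-y 20068 bp and Hbb-bh1 30113 bp.

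The strongest cluster of the beta locus, at +46.1 kb (chr7:103806936-103807305), lay downstream of the last adult gene, 5439 bp from Hbb-bt. Its strongest pair had 88 forward and 18 reverse tags, 44 bp apart. The cluster had 214 tags in the deepest library, 8 in that of 270000 cells and none listed in the 4 organs or the library of 27000 cells. In RPM, the library of 270000 cells had 0.385 times the level of the deepest one (0.164 to 0.772). It was the only beta cluster at which a second library had a pair, and its centres in the 2 libraries were 1 bp apart (103807085 and 103807084).

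Upstream of the embryonic gene, 2 clusters lay at −20.1 and −21.4 kb and 1 at −60.0 kb, close to the olfactory receptor gene Olfr631. The cluster at −20.1 kb (chr7:103873175-103873438) had 28 tags in the deepest library, 5 in brain, 5 in lung, 3 in kidney and none listed in the liver organ or the smaller titration libraries. It was the only beta cluster with tags in an organ. In each of these organs the tags formed 1 peak of 1 position, on the forward strand in brain and kidney and on the reverse strand in lung. The cluster at −60.0 kb (chr7:103913071-103913297), 1865 bp from Olfr631, had 100 tags and that at −21.4 kb had 22 tags, all in the deepest library. The other beta clusters, at +60.1 kb beyond Hbb-bt and at −75.3 kb within Olfr631, had 24 and 4 tags in that library alone.

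**Figure D1:**
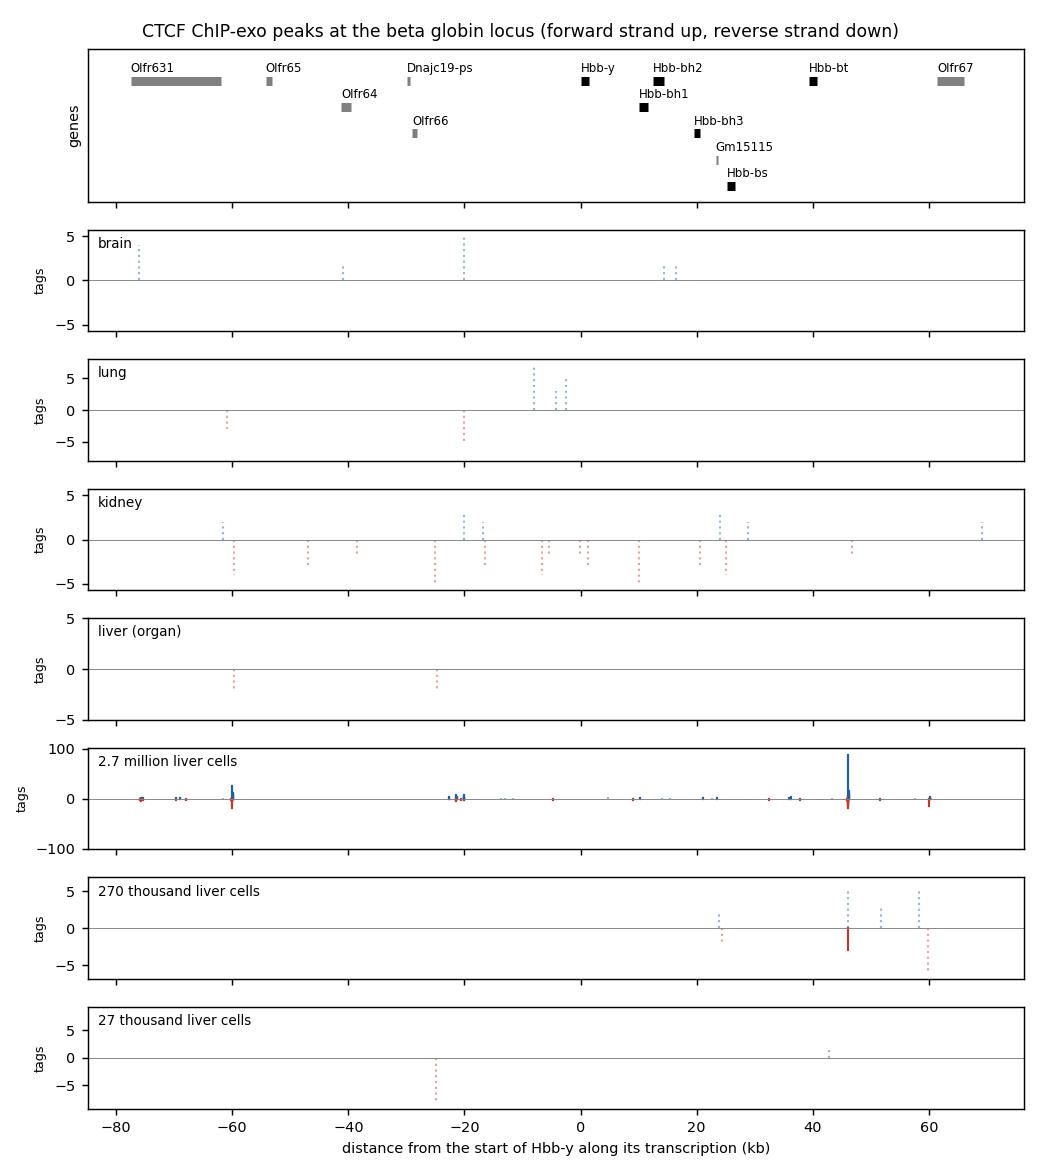
Listed tags per peak (y axis, forward strand upwards in blue and reverse strand downwards in red) against the distance from the start of Hbb-y in kb (x axis) in each of the 7 libraries, with globin genes in black and other genes in grey; solid lines are peaks of several positions and dotted lines peaks of 1 position. The tallest peak, 88 forward tags at +46.1 kb, is in the deepest library, and all peaks of the organs are dotted.

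The organs showed little at the beta locus. Brain had 5 peaks with 15 tags, lung 5 with 23, kidney 19 with 56 and the liver organ 2 with 4, and none of them had a pair. Each of these 31 peaks was of 1 position. Of peaks of 1 position genome-wide, 3.49% to 22.6% in the organs were near a pair (within 100 bp) of the deepest library, against 30.0% to 80.8% of peaks with several positions. Tag density against the rest of the genome was 0.152 in the liver organ (0.0414 to 0.389), 0.276 in brain (0.154 to 0.455), 0.617 in lung (0.391 to 0.925) and 0.652 in kidney (0.492 to 0.846). All 4 intervals lay below 1, but they treat tags of the same peak as independent and are too narrow. With peaks of at least 5 tags only, density was 0.289 in kidney, 0.285 in brain and 0.561 in lung, and the liver organ had no such peak. The library of 270000 cells had 7 peaks and 26 tags at a density of 0.818 (0.535 to 1.20), which was 1.30 with peaks of at least 5 tags only and 0.281 without peaks of 1 position. The library of 27000 cells had 10 tags in 2 peaks of 1 position, and its density of 5.83 (2.79 to 10.7), or 10.1 with peaks of at least 5 tags only, rests on those 2 peaks.

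At the alpha locus all 4 organs had tags at clusters of the deepest library. Brain had 52 peaks with 209 tags, lung 24 with 157, kidney 42 with 134 and the liver organ 26 with 59. Density against the rest of the genome was 3.20 in brain (2.78 to 3.66), 3.51 in lung (2.98 to 4.10), 1.87 in the liver organ (1.42 to 2.41) and 1.30 in kidney (1.09 to 1.54), all with intervals above 1. These intervals treat tags of the same peak as independent and are too narrow, and 34 of the 42 kidney peaks were of 1 position. With peaks of at least 5 tags only, density fell below the genome in kidney, at 0.770, and no such peak was listed in the liver organ, while brain stood at 5.00 and lung at 3.55. Without peaks of 1 position it was 6.69 in brain, 5.79 in lung, 2.07 in the liver organ and 1.81 in kidney. The library of 270000 cells had 93 tags at a density of 2.44 (1.97 to 2.99), and that of 27000 cells 5 tags in 2 peaks. Of the peaks with several positions, all 22 in brain, all 7 in lung and all 10 in the library of 270000 cells were near a pair of the deepest library, as were 6 of 8 in kidney and 6 of 9 in the liver organ. Genome-wide, the share of such peaks near a pair was 76.1% in brain, 80.8% in lung and 71.1% in the library of 270000 cells. It was 39.1% in kidney and 30.0% in the liver organ. All 10 organ pairs of both loci were in the alpha locus, with 5 in brain, 3 in kidney and 1 each in lung and the liver organ.

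**Figure D2:**
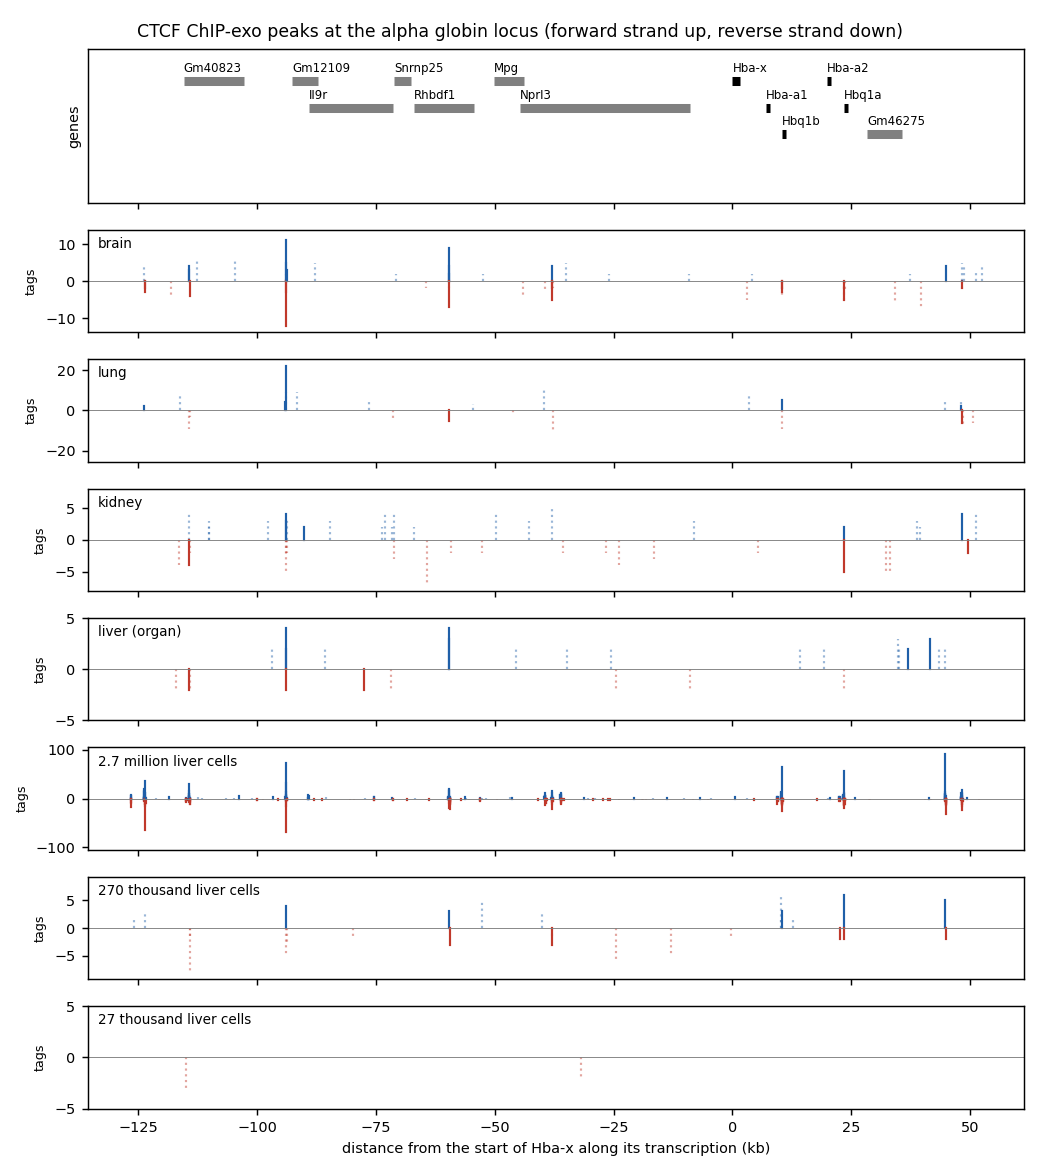
Listed tags per peak (y axis, forward strand upwards in blue and reverse strand downwards in red) against the distance from the start of Hba-x in kb (x axis) in each of the 7 libraries, with globin genes in black and other genes in grey; solid lines are peaks of several positions and dotted lines peaks of 1 position. Peaks on both strands recur at −93.9 kb in brain, kidney, the liver organ and the libraries of 2700000 and 270000 cells.

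The cluster at −93.9 kb (chr11:32182563-32182948), between the long noncoding RNA gene Gm40823 and the pseudogene Gm12109, 1318.5 bp from the latter, had a pair in more libraries than any other. It had 36 tags in brain, 35 in lung, 19 in kidney, 8 in the liver organ, 241 in the deepest library and 12 in that of 270000 cells. A pair was found in 5 libraries, and in lung all 35 tags were on the forward strand. The strongest pair of the deepest library had 73 forward and 69 reverse tags, 45 bp apart. The strongest forward peak lay at 32182671 there, at 32182669 in brain, 32182664 in lung, 32182667 in kidney, 32182660 in the liver organ and 32182668 in the library of 270000 cells, a spread of 11 bp. Relative to the deepest library, its level in RPM was 1.38 in lung (0.942 to 1.98), 0.953 in brain (0.652 to 1.36), 0.318 in kidney (0.188 to 0.507), 0.415 in the liver organ (0.177 to 0.831) and 0.512 in the library of 270000 cells (0.261 to 0.912). The intervals of brain and lung thus include 1 and those of the other 3 lie below it.

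Of the 18 alpha clusters, 11 had tags in an organ and 2 in all 4 organs, while 5 had tags in no other library. No share over all clusters of the genome is at hand for these counts, so they only describe the alpha clusters. The second cluster found in all 4 organs, at −114.2 kb within Gm40823, had 11 tags in brain, 12 in lung, 10 in kidney, 4 in the liver organ, 114 in the deepest library and 10 in that of 270000 cells. At −123.6 kb the deepest library had 244 tags, the highest of all clusters in both loci, against 9 in brain, 2 in lung and 3 in the library of 270000 cells. The cluster with most tags was thus listed in 2 organs, and that of 114 tags in 4. At the upstream end of the window, the cluster at −126.5 kb had 51 tags in the deepest library and none listed elsewhere. That at −115.0 kb within Gm40823 had 21 tags in the deepest library and 3, in 1 peak of 1 position, in the library of 27000 cells. The clusters of fewest tags were at −89.1 kb in Gm12109 with 17, and at −75.4 and −71.5 kb in Il9r with 12 and 6, to which lung added 4 at −71.5 kb.

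Within the genes next to the globins, pairs lay in Rhbdf1, which encodes an inactive rhomboid protein, and in Nprl3, a regulator of the mTOR pathway whose introns hold alpha globin enhancers. Rhbdf1 had 7 pairs in the deepest library, all in the cluster at −59.6 kb, with 24 tags in brain, 5 in lung, 7 in the liver organ, 164 in the deepest library, 6 in that of 270000 cells and none listed in kidney. Brain had 2 pairs there. Nprl3 had 11 pairs in 3 clusters. The cluster at −37.9 kb had 13 tags in brain, 10 in lung, 5 in kidney, 99 in the deepest library and 5 in that of 270000 cells. That at −39.4 kb had 3 tags in brain, 10 in lung and 78 in the deepest library, and that at −36.1 kb had 80 tags in the deepest library and none listed elsewhere. The 3 Nprl3 clusters lay within 4 kb of each other and had 78 to 99 tags in the deepest library, yet those at −39.4, −37.9 and −36.1 kb were listed in 2, 4 and 0 of the other libraries. Mpg, a DNA repair gene, and Snrnp25, a component of the minor spliceosome, had no pair in their bodies, and Il9r, a cytokine receptor gene, had 2 pairs.

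The stretch from Nprl3 to the first adult alpha gene had no pair over 45.3 kb in the deepest library, and 25.8% of gaps genome-wide were at least as long. It held Hba-x, Hba-a1 and part of Nprl3, with 26 peaks and 56 tags. Hba-x had 3 tags and Hba-a2 had 4 tags in their bodies in the deepest library, and Hba-a1 had none in any library. The nearest pair was 7926 bp from Hba-x, 1556 bp from Hba-a1 and 1754 bp from Hba-a2. The adult alpha genes thus lay closer to a pair than any of the 4 beta genes.

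In the alpha globin gene cluster the pairs lay at the 2 theta globin genes, which follow the adult alpha genes. The strongest pair at Hbq1b was centred 20 bp before its start, with 64 forward and 25 reverse tags 40 bp apart, and that at Hbq1a 21.5 bp before its start, with 56 forward and 19 reverse tags 39 bp apart. The forward stop lay 13 and 14 bp before the middle of the shared GCCCCCT printed above, and the reverse stop 27 and 25 bp after it. At Hbq1b the cluster had 5 tags in brain, 14 in lung, 160 in the deepest library, 5 in that of 270000 cells and none listed in kidney or the liver organ. At Hbq1a it had 14 tags in brain, 7 in kidney, 2 in the liver organ, 181 in the deepest library, 8 in that of 270000 cells and none listed in lung. Lung thus had tags at Hbq1b and not at Hbq1a, and kidney and the liver organ at Hbq1a and not at Hbq1b. Each of these counts was at most 14 tags. In no organ did stops pair around the shared GCCCCCT. The lung pair at Hbq1b had its stops at −11 and 39 bp from the start, beyond it. Brain had reverse tags only at both genes. Kidney stops at Hbq1a, at −67 and 32 bp, lay on either side of it but formed no pair. Relative to the deepest library, Hbq1b was 0.199 in brain (0.0639 to 0.475) and 0.834 in lung (0.446 to 1.44), and Hbq1a was 0.494 in brain (0.265 to 0.850) and 0.156 in kidney (0.0618 to 0.328). Smaller clusters of 34 and 29 tags lay before each theta gene, at +9.44 and +22.5 kb.

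**Figure D3:**
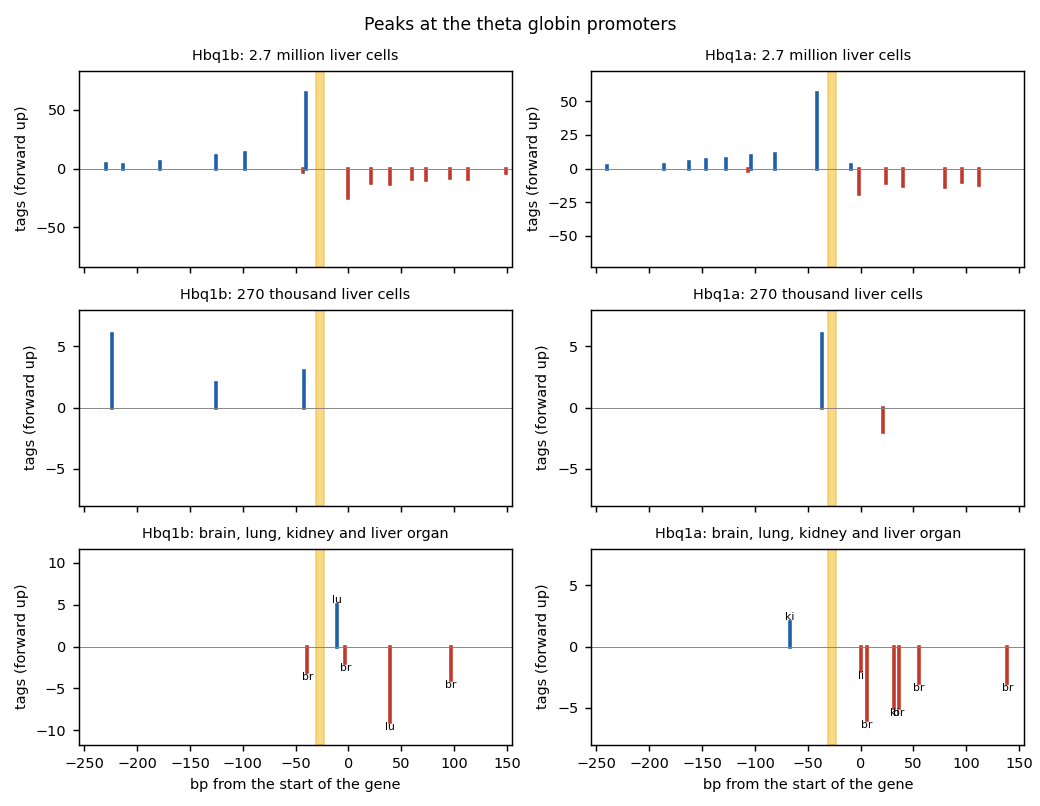
Listed tags per peak (y axis, forward strand upwards in blue and reverse strand downwards in red) against the distance from the start of Hbq1b (left) and Hbq1a (right) in bp (x axis) in the deepest library, that of 270000 cells and the 4 organs (br brain, lu lung, ki kidney, li liver); the yellow band is the shared 7-base core. In the deepest library the tallest forward peak (64 and 56 tags) stands just left of the band and the tallest reverse peak (25 and 19 tags) to its right.

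Matches to the core spellings were common in promoters, so that a match is a description and not a site. Of all 32817 promoters, 27.6% held a core on either strand, as did 58.4% of 1673 promoters with a pair centre of the deepest library, 81.7% of the 252 whose strongest pair had at least 50 tags, and 25.9% of those with no pair. In the loci, the Hba-x promoter held an AGGGGGC on the other strand at 85 to 79 bases before the start and no listed peak in any library. The Hbb-bs promoter held an AGAGGGC at 54 to 48 bases before the start, and its only peak, of 4 kidney tags, was at −183 bp from the start. Of the 20 promoter sequences in both windows, 15 had no listed peak in any library. The 20 hold Gm40823 more than once, with overlapping sequences. No such share is at hand over all promoters, so this count only describes the loci. The theta promoters held 1 further match before the start, at 89 to 83 bases, and Hbq1a also held 1 after it. None of these lay between the stops of the strongest pair. In the deepest library a weaker pair of 16 tags, with stops at 32286866 and 32286921, spanned the further match at Hbq1b. Another pair of 16 tags, with stops at 32300060 and 32300109, spanned the match after the start of Hbq1a.

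Both theta pairs had more tags on the forward strand, 71.9% at Hbq1b and 74.7% at Hbq1a. The same strand bias was seen at other promoters with 1 core within 50 bp of a pair of at least 50 tags. Where the core was on the minus strand, as at the theta genes, the median forward share was 71.5% over 92 promoters (quartiles 60.1 to 78.3), and 76 of them were over 50%. Where it was on the plus strand, the median was 30.0% over 81 promoters (22.8 to 42.5), and 13 were over 50%. Some genes have several promoters at the same pair and some neighbouring genes share a pair. The 92 and 81 promoters therefore stand for fewer separate pairs. The forward stop lay a median of 13 bp before a core on the minus strand and 28 bp before a core on the plus strand, and the reverse stop 27 and 13 bp after it. Hbq1b is among the 92, so that these shares are a description of the same library. Hbq1a is not, because its promoter holds a further AGGGGGC on the plus strand within 50 bp of the pair.

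Beyond the theta genes the alpha locus ended in 2 clusters, at +44.8 and +48.3 kb, between the noncoding RNA gene Gm46275 and Sh3pxd2b. The former had the strongest forward peak of both loci, 91 tags with 32 reverse tags 39 bp away. It had 4 tags in brain, 4 in lung, 2 in the liver organ, 223 in the deepest library and 9 in that of 270000 cells. Its level was 0.114 in brain (0.0309 to 0.297), 0.171 in lung (0.0462 to 0.444) and 0.415 in the library of 270000 cells (0.187 to 0.803) of that in the deepest library. The cluster at +48.3 kb had 10 tags in brain, 12 in lung, 4 in kidney, 142 in the deepest library and none listed in the liver organ and the smaller titration libraries. The 2 clusters thus differed in which of the smaller libraries listed them, at 223 and 142 tags in the deepest one.

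In 6 globin clusters the strongest pair had at least 50 tags. Their stops were 39 to 45 bp apart with a median of 40 bp, beside a median of 41 bp (quartiles 35 to 45) over 10351 such clusters in the genome. Their forward share ran from 36.3% to 83.0%. At least 70% of the tags were on 1 strand in 4 of the 6, beside 47.4% of the clusters genome-wide. Where another library listed a peak at a globin cluster, its strongest peak on the same strand lay within 10 bp of that of the deepest library in 8 of 15 cases in the library of 270000 cells, 4 of 6 in the liver organ, 6 of 17 in brain, 2 of 9 in kidney and 3 of 13 in lung. The median offset was 6 bp in the library of 270000 cells, 7 bp in the liver organ, 22 bp in brain, 34 bp in kidney and 45 bp in lung. No such counts and offsets are given over all clusters of the genome, so they cannot be called particular to these loci.

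**Figure D4:**
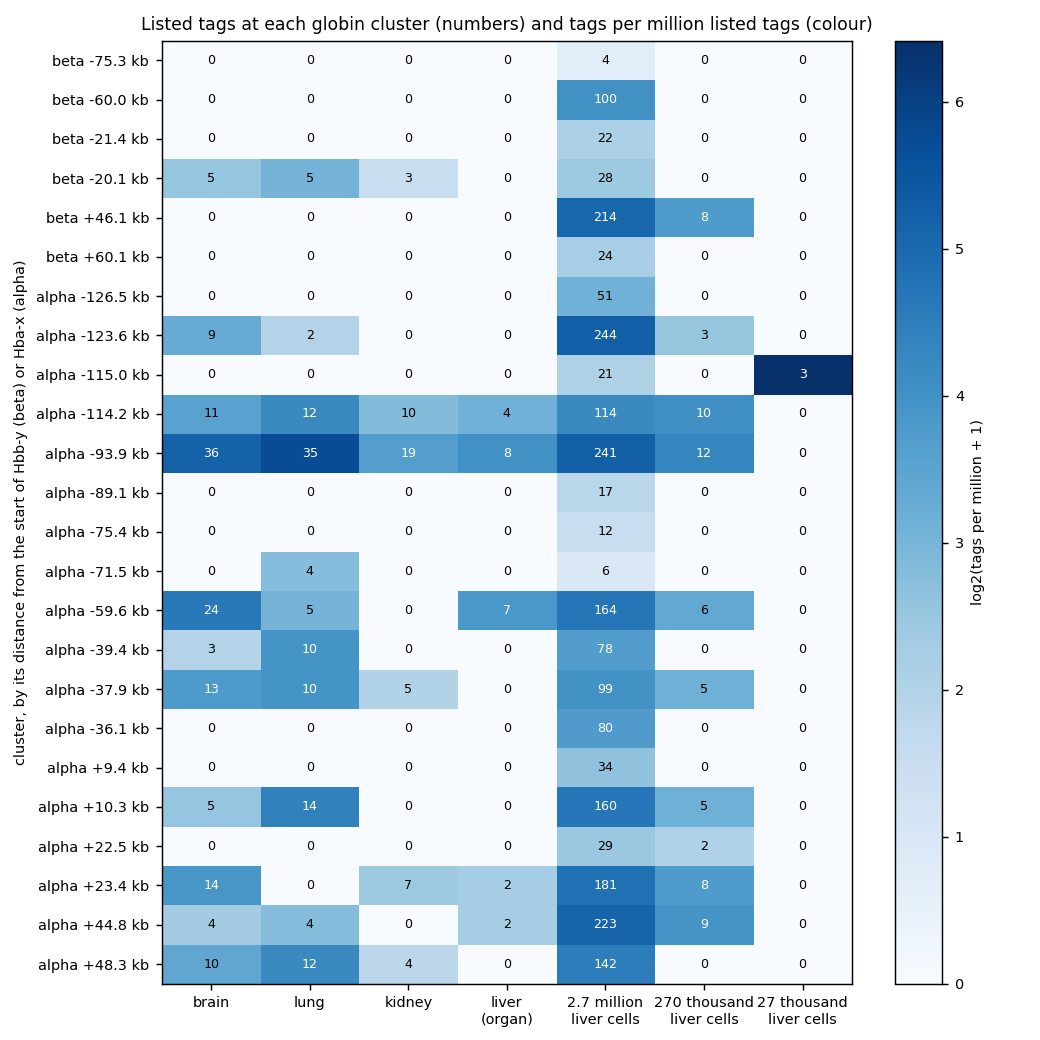
Listed tags at each of the 24 clusters (rows, by distance from the start of Hbb-y or Hba-x in kb) in the 7 libraries (columns), with the tag count printed in each cell and the colour giving log2(RPM + 1). The row at −93.9 kb of the alpha locus has tags in 6 libraries (36, 35, 19, 8, 241 and 12), while 5 of the 6 beta rows have none in any organ.

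The share of the deepest library's pairs with a listed peak within 100 bp in another library was higher at the alpha than at the beta locus. Brain listed tags at 41 of 59 alpha and 1 of 13 beta pairs, beside 48.6% of all pairs on the autosomes, X and Y. Lung listed them at 33 and 2 pairs, beside 38.8%, and kidney at 18 and 2 pairs, beside 34.1%. The liver organ listed them at 22 alpha pairs and no beta pair, beside 20.8%. The library of 270000 cells listed them at 35 and 5 pairs, beside 38.7%, and that of 27000 cells at 1 and 0 pairs, beside 1.91%. As shares, the alpha pairs stood at 69.5% in brain (95% Clopper-Pearson interval 56.1 to 80.8), 55.9% in lung (42.4 to 68.8), 37.3% in the liver organ (25.0 to 50.9), 59.3% in the library of 270000 cells (45.7 to 71.9) and 30.5% in kidney (19.2 to 43.9). Windows of neighbouring pairs overlap, so these intervals are too narrow, and the first 4 of them lay above the share over all pairs. Counted once per cluster, tags were listed in brain at 10 of 18 alpha and 1 of 6 beta clusters beside 36.6% of all clusters, in lung at 10 and 1 beside 29.6%, in kidney at 5 and 1 beside 27.1%, in the liver organ at 5 and 0 beside 15.6%, in the library of 270000 cells at 9 and 1 beside 28.2%, and in that of 27000 cells at 1 and 0 beside 1.09%. Per alpha cluster the intervals were 30.8 to 78.5 in brain and in lung, 26.0 to 74.0 in the library of 270000 cells, and 9.69 to 53.5 in the liver organ and in kidney. Counted this way, only the interval of lung lay above the share over all clusters among these 5 libraries, and those of brain, the liver organ, kidney and the library of 270000 cells included it.

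**Figure D5:**
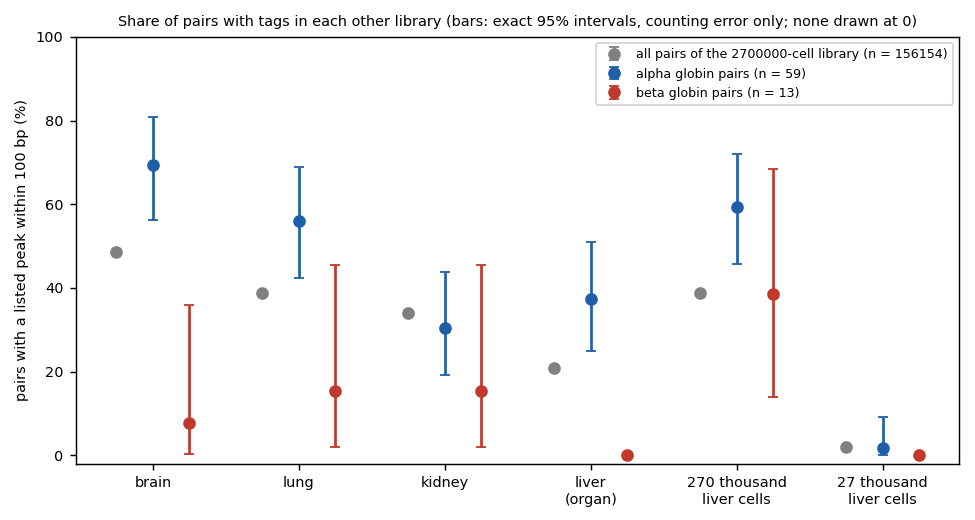
Share of pairs of the 2700000-cell library with a listed peak within 100 bp (y axis, %) in each of the other 6 libraries (x axis), for all pairs (grey), alpha globin pairs (blue, n = 59) and beta globin pairs (red, n = 13), with exact 95% intervals for counting error where the share is above 0. Alpha pairs lie above the grey points in brain, lung, the liver organ and the library of 270000 cells, and beta pairs below them in each organ.

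The beta pairs of most tags were not listed in the organs either. Of the 8 beta pairs with at least 50 tags within 100 bp, none was listed in any of the 4 organs and 5 were listed in the library of 270000 cells. Of the 46 such alpha pairs, 39 were listed in brain, 29 in lung, 17 in kidney, 21 in the liver organ and 31 in the library of 270000 cells. None was listed in the library of 27000 cells. Over all such pairs the shares were 68.8%, 56.0%, 48.6%, 31.2%, 59.6% and, with 27000 cells, 3.22%. The interval of the alpha share lay above that share in brain (71.1 to 93.7) and included it in lung (47.5 to 76.8), kidney (23.2 to 52.5), the liver organ (30.9 to 61.0) and the library of 270000 cells (52.0 to 80.5). Windows of these pairs overlap too, so these intervals are too narrow. Per alpha cluster of any tag number, the brain interval (30.8 to 78.5) included the share over all clusters, 36.6%. The 8 beta pairs came from the clusters at +46.1 and −60.0 kb, so they stand for 2 places and not 8.

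Where both libraries listed tags at a globin pair, levels in RPM were mostly lower than in the deepest library, as they were genome-wide. Brain was at least 2-fold lower at 15 of 42 pairs and higher at 0, beside 49.0% lower and 6.19% higher over all pairs with tags in both. Lung was lower at 17 and higher at 4 of 35 pairs, beside 26.3% and 22.5%. Kidney was lower at 18 and higher at 0 of 20 pairs, beside 78.0% and 2.24%, and the liver organ lower at 15 and higher at 0 of 22, beside 60.6% and 8.25%. The library of 270000 cells was lower at 23 and higher at 1 of 40 pairs, beside 49.9% and 6.68%. The median fold was 0.620 in brain and 0.511 over all pairs, 0.561 and 0.948 in lung, 0.264 and 0.224 in kidney, 0.324 and 0.388 in the liver organ, and 0.479 and 0.501 in the library of 270000 cells. The library of 27000 cells had 1 pair with tags in both, at −115.0 kb, where 3 of its tags and 21 of the deepest library gave a ratio of 26.5 (5.05 to 88.6), beside 86.2% higher and 0.235% lower over all pairs. At that depth a listed peak is worth at least 56.2 RPM. The lowest ratio possible at a pair is therefore this level over that of the deepest library. Scaled instead to tags at pairs outside dense bins (10 kb bins where 6 libraries each listed 20 peaks or more), which hold 6.60% to 31.3% of the organ tags and 59.9% of those of the deepest library, every fold was shifted upwards by 0.94 to 3.18 on the log2 scale, globin pairs and all pairs alike. On that scale the pairs at least 2-fold higher were 19 of 42 in brain beside 39.4% of all pairs, 13 of 35 in lung beside 46.0%, 13 of 20 in kidney beside 50.8%, 13 of 22 in the liver organ beside 67.2%, 12 of 40 in the library of 270000 cells beside 40.7%, and the 1 pair of that of 27000 cells beside 99.9%. Without peaks of 1 position, which also lowers each library's total, they were 17 of 37 in brain beside 34.3%, 7 of 19 in lung beside 62.0%, 0 of 15 in kidney beside 20.8%, 0 of 14 in the liver organ beside 17.8% and 1 of 31 in the library of 270000 cells beside 15.1%, and that of 27000 cells had no globin pair left beside 96.1%. In the organs and the library of 270000 cells the direction of change thus depends on the scaling, over all pairs as at the globin pairs, and in brain and lung also on peaks of 1 position.

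A pair of the same library lay within 20 kb of 5 of the 7 globin genes in the deepest library, beside 84.0% of protein-coding genes, of 4 in the library of 270000 cells beside 18.7%, and of 3 in lung beside 21.8%. It lay near 0 of 7 in brain beside 37.8%, in kidney beside 17.5%, in the liver organ beside 5.94% and in the library of 27000 cells beside 0.0228%. Neighbouring genes share these pairs. Around single genes, tags were summed over the gene body and 20 kb on each side. Around Hba-a1, the level in RPM was 74.0 in the deepest library (95% exact Poisson interval 67.6 to 80.9), 46.8 in that of 270000 cells (31.6 to 66.9), 33.9 in brain (23.6 to 47.1), 31.8 in lung (19.9 to 48.2), 15.2 in the liver organ (6.55 to 29.9) and 7.34 in kidney (3.79 to 12.8), with none listed in the library of 27000 cells. Between neighbours in this order, only the first 2 intervals do not overlap. The interval of kidney also lies below those of brain, lung and the library of 270000 cells. Around Hbb-bs the level was 39.6 in the deepest library (34.9 to 44.7), 18.7 in that of 270000 cells (9.68 to 32.7), 10.4 in kidney (6.05 to 16.6) and 3.87 in brain (1.06 to 9.92), with none listed in lung and the liver organ. Here too, between neighbours only the first 2 intervals do not overlap, and that of the deepest library also lies above those of kidney and brain. The library of 27000 cells had 2 tags there, or 56.2 RPM (6.80 to 203). Most of the tags around Hbb-bs in the deepest library, 214 of 261, were those of the cluster at +46.1 kb. Around Hbb-y, 20 kb away from any pair, the levels were 21.7 in lung (12.1 to 35.8), 14.7 in kidney (9.40 to 21.8), 3.87 in brain (1.06 to 9.92) and 3.49 in the deepest library (2.21 to 5.23), and all of these organ peaks were of 1 position. Windows of neighbouring genes overlap, so that the levels around Hba-x and Hba-a2 share tags with those around Hba-a1.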

How the data were processed

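The labels and the study's methods describe CTCF ChIP-exo 5.0 in 7 mouse libraries, 1 per condition. The authors sequenced both ends, aligned the reads, kept unique alignments and discarded PCR duplicates. The submitters' processing notes name BWA 0.7.9a, bcl2fastq 2.16 and mm10, whereas the study's methods mention alignment to yeast and human sequence. The authors deposited strand-specific peak lists of 21 bp with a raw tag count and, as a score, the spread (SD, bp) of tag positions in each peak, which is 0 where all tags start at 1 position. The lists name genetrack as their source. A short code in their names may hold the caller's settings and is not explained in the sources used here.

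From the deposited counts, forward and reverse peaks 10 to 80 bp apart were paired by summed tags, each peak once, pairs within 200 bp were joined to clusters, and tags were summed within 100 bp of each pair. A cluster spans its pair centres and 100 bp on each side. Folds are ratios of RPM (tags per 1000000 listed tags). Intervals are exact (Poisson, Clopper-Pearson, conditional) at 95%. Gene positions and promoters are those of RefSeq GRCm38.p6. No genome sequence was used here, so motif letters were searched in promoters only, and exons and introns are not given. The planned windows around every pair were not searched. Named genes are those with their body in either window. Named sites are pair sites merged within 50 bp and found in at least 2 libraries, and the 5 sites with most tags at each locus. Other clusters are named to account for every member. The members, gene lists and alternatives were chosen with earlier results of these data known. Pairing was tested on simulated data. Alternatives changed the tag minimum, the window, the pair distance, the scaling, and peaks of 1 position. Computation used scipy 1.17.1, pandas 2.3.3, numpy 2.4.6 and matplotlib 3.10.9 in Python 3.11.15.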

Additional observations from a re-analysis of the deposited data

How the results depend on the processing

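No paired analysis was possible because each condition has 1 library. With peaks of at least 5 tags only, the beta pairs became 6 and the alpha pairs 22, and without peaks of 1 position 11 and 55. Density in the deepest library was 1.78 and 7.17 with the former and 1.61 and 5.96 with the latter, and 5.57 at the alpha locus without dense bins (10 kb bins where 6 libraries each listed 20 peaks or more). Globin pairs with tags numbered, with peaks of at least 5 tags, 22 in brain, 7 in kidney, 0 in the liver organ, 20 in the library of 270000 cells and 0 in that of 27000. Without peaks of 1 position they numbered 37, 19, 15, 14, 31 and 0 in brain, lung, kidney, liver organ, 270000 and 27000 cells, and with peaks on both strands 24, 1, 10, 3, 16 and 0. Within 50 bp, lung had 20 and the liver organ 13. Chosen after the data were seen, clusters counted once gave 11, 11, 6, 5 and 10, and pairs of at least 50 tags 0 in the library of 27000 cells. Pairs at least 2-fold higher were 19, 13, 13, 13 and 12 in brain, lung, kidney, liver organ and 270000 cells with scaling to tags at pairs, and 17, 7, 0, 0, 1 and, with 27000 cells, 0 without peaks of 1 position. The cause of these changes was not tested. Depth limits a listed 0, since the lowest listed count corresponds to 8.06 to 25.0 tags of the deepest library in the organs and 370 in the library of 27000 cells.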

Other observations

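Of 25 genes of the erythroid programme listed beside the globins, such as transcription factors and membrane proteins of red cells, 24 were matched by symbol and Ahsp was not. A pair lay within 20 kb of 11 of the 24 in brain, beside 37.8% of protein-coding genes, of 3 in lung beside 21.8%, of 7 in kidney beside 17.5%, of 4 in the liver organ beside 5.94%, of 24 in the deepest library beside 84.0%, of 7 in that of 270000 cells beside 18.7% and of 1 in that of 27000 cells beside 0.0228%. Ank1, which encodes an anchor protein of the red cell membrane, had a pair in every library except lung, and Zfpm1, a partner of GATA1, in every library except that of 27000 cells.

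The genes whose level of tags over the body and 20 kb on each side was most like that of Hba-a1 over the 7 libraries were Gm38687, Upk2, Gm42379, Gm35997 and Tbkbp1, at distances of 0.650 to 0.746 on the log2(RPM + 1) scale among 44872 genes. For Hbb-bs they were Trav5n-3, Trav12n-3, Trav9n-3, n-R5s7 and Vmn2r22, at 0.842 to 2.17 among 44841 genes. The former list had 8 or fewer tags in the liver organ for all but Upk2, which had 9, and the latter had none in lung and the liver organ, as had Hbb-bs.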
